A study of Sus scrofa with 4 samples.

Results

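Capillary endothelial cells of the primary porcine pancreas were examined across genes. They were 943 of the 14656 cell barcodes of the primary pancreas libraries and of 32580 barcodes in all. A barcode was kept with at least 2000 UMIs (unique molecular identifiers, each marking 1 captured transcript), at most 9000 features, SLC4A4 under 0.3% and INS under 5% of its UMIs. It then needed at least 8 UMIs over at least 3 of PECAM1, CDH5, KDR, FLT1, ESAM and EMCN, genes of the endothelial surface and cell junctions. An endothelial barcode was called capillary when its UMIs of DYSF, BTNL9, CLIC5 and LRRC3B exceeded those of SELP, IL33, SLCO2A1 and TLL1, and vessel when the order was the opposite. Members were thus chosen by the levels of these 16 genes, and every gene that follows those 8 genes from cell to cell differs across the split: the comparisons below describe its sides and do not test whether it finds a cell type.

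The study compared porcine pancreatic ductal organoids (PPDO) with primary porcine pancreas by single-cell RNA sequencing (scRNA-Seq; 10x Chromium 3' chemistry), with 2 libraries of each. According to the study's methods, the pancreata came from a wild-type and an INS-eGFP pig of German landrace background, both aged PN150, dispersed on separate days with collagenase V and TrypLE. The INS-eGFP transgene marks beta cells under the porcine insulin promoter. The first preparation was live cells from hand-picked ductal fragments and the second pooled DBA-positive, INS-eGFP-positive and unselected sorted cells, so shares of cells here describe these sorts and not the organ. The labels do not tie a library to a pig. With library, pig, day and sort changing together, their parts cannot be told apart.

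Capillaries are the smallest vessels, lined by a single layer of endothelial cells across which the tissue exchanges gases, hormones, lipids and nutrients. In endocrine and digestive organs this lining is perforated by fenestrae, pores closed by a diaphragm of the protein PLVAP, and is known for receptors of VEGF, which tissue cells secrete to maintain it. Arteries and veins, on either side of the capillary bed, carry other programmes, among them the storage and display of P-selectin (SELP) for leukocyte capture in venules and Notch signalling in arterial lining.

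Primary pancreas 1 held 747 capillary, 299 vessel and 24 tied barcodes of 6999, and primary pancreas 2 held 196, 66 and 3 of 7657. The capillary share of barcodes was 10.7% (95% Clopper-Pearson interval 9.96 to 11.4%) in the first and 2.56% (2.22 to 2.94%) in the second, where it was 4.5% of the cells left by the study's own limits with Scrublet. Within the endothelial barcodes the capillary share was 69.8% (67.0 to 72.6%) and 74.0% (68.2 to 79.1%), so the libraries differed in how much endothelium they held far more than in its split. No capillary barcode was found among 8995 PPDO 1 and 7457 PPDO 2 barcodes within the UMI and feature limits, which allows shares of up to 0.0334% and 0.0402%. The primary libraries shared 10 barcode sequences, 2 of them capillary in primary pancreas 1, and none was capillary in both. These intervals and limits cover counting error only.

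Depth was alike in the capillary cells of both libraries. The median was 9008 UMIs and 3156 features per capillary cell in primary pancreas 1 and 9614 UMIs and 3484 features in primary pancreas 2. Summed over cells, the capillary libraries held 8343940 and 2106633 UMIs and the vessel libraries 4070405 and 850452. Levels below are counts per 1000000 UMIs of such a sum (CPM), given for primary pancreas 1 and then 2. They were not corrected for free RNA.

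Few members lay close to the endothelial limit of the rule, and more lay close to the split. The median capillary cell had 47 and 55.5 UMIs of the 6 endothelial genes, and 4 and 1 members had only 8 or 9 of them, while 3 and 0 barcodes with 6 or 7 and more capillary than vessel UMIs were left outside. On the split, 31 and 5 members were capillary by 1 UMI, 24 and 3 barcodes were tied, and 17 and 4 were vessel by 1 UMI. Members capillary by under 4 UMIs were 101 and 13. The median capillary cell had 16 and 22 UMIs of the 4 capillary genes against 4 and 6 of the 4 vessel genes.

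**Figure D1:**
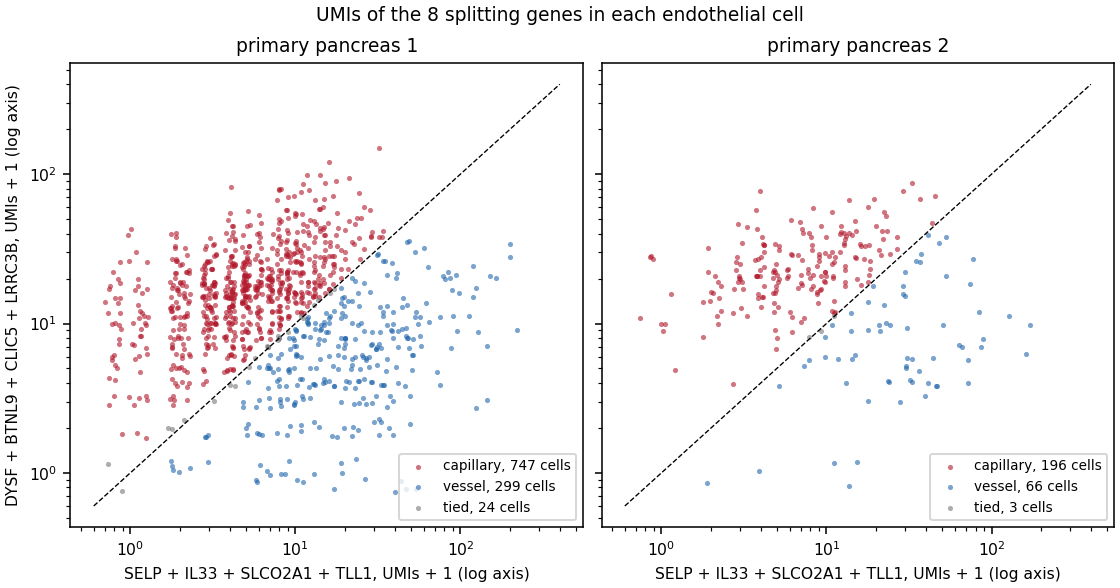
UMIs plus 1 of the 4 capillary genes (vertical, log axis) against the 4 vessel genes (horizontal, log axis) in each endothelial cell, with points jittered by up to 0.3 UMI and the dashed line marking equality. The 747 and 196 capillary cells lie above the line, and 24 and 3 tied cells lie on it.

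The genes of the rule are given as a description. FLT1, a VEGF receptor, stood at 1505 and 1703 CPM in capillary cells and at 679 and 900 in vessel cells. KDR, the main signalling receptor of VEGF, stood at 371 and 422 CPM against 100 and 125. PECAM1, a junction protein of all endothelium, was about level, at 2195 and 2229 CPM against 2212 and 2595. Of the splitting genes, BTNL9, a butyrophilin-like surface protein, had 238 and 609 CPM against 9.83 and 45.9. DYSF, the membrane repair protein dysferlin, had 668 and 586 CPM against 209 and 258, and CLIC5, a chloride channel-like protein tied to the cell cortex, 516 and 582 against 158 and 253. Capillary cells were not free of every vessel gene: SLCO2A1, a prostaglandin transporter, stood at 432 and 679 CPM in them, whereas TLL1, a secreted metalloprotease, stood at 3.12 and 0.949 CPM against 528 and 621.

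The members carried endothelial genes outside the rule and few genes of other pancreatic cells. Of 25 further endothelial genes matched, 23 were higher in capillary than in non-endothelial cells in both libraries. No share over all genes is given for this order, so this count and those below compare the lists with one another only. Members passed the endothelial limit of the rule, whereas the non-endothelial cells fell short of it. Genes that follow the endothelial genes of the rule from cell to cell are then higher in members by that choice. The 23 of 25 therefore describe the members and do not test whether they are endothelial. Immune, endocrine and ductal markers in capillary sums came to 1158 and 1229, 170 and 9863, and 143 and 179 CPM, and 0 of 13 acinar, 0 of 13 mural and 0 of 14 ductal markers exceeded their level in non-endothelial cells in both libraries, against 2 of 16 immune, 2 of 9 Schwann cell, 1 of 10 fibroblast and 0 of 13 endocrine markers. INS and SLC4A4, which the rule limits, are on the endocrine and ductal lists, and INS alone came to 142 and 9503 CPM. The non-endothelial cells include cells that these limits removed, so the endocrine and ductal counts follow in part from the rule. The Schwann cell markers summed to 1150 and 1510 CPM, nearly all of it ERBB3, at 1109 and 1435 CPM in capillary and 891 and 582 CPM in non-endothelial cells. Most of the immune sum was CD79A, at 1007 and 998 CPM, which was also read at 603 and 262 CPM outside the endothelium, while PTPRC, the pan-leukocyte phosphatase, stood at 38.2 and 62.2 CPM. RGS5 and ACTA2, markers of pericytes and smooth muscle, had UMIs in 26 and 28 of 747 members of primary pancreas 1 and in 2 and 0 of 196 in primary pancreas 2. INS was found in every capillary cell of primary pancreas 2, as it was in every immune, ductal and mural cell there, and is read here as background.

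Capillary and vessel cells of 1 number come from 1 library and therefore 1 pig, so the 4 sums are paired. Fitted with edgeR without the pairing, 1 of 12353 genes passed an adjusted p of 0.05 (0.0081%), WIPF3, and 1407 had an unadjusted p under 0.05. With the library as a block, 2023 genes passed (16.4%), 941 higher (7.62%) and 1082 lower (8.76%) in capillary cells, and the common biological coefficient of variation dropped from 0.303 to 0.111. Every log2 fold change (capillary over vessel, ± SE) and adjusted p below comes from this blocked edgeR fit, whose single residual degree of freedom leans on the spread shared across genes. Apart from WIPF3, no gene named below passed in edgeR without the block. DESeq2 called 422 genes without it (3.42%), 191 higher (1.55%) and 231 lower (1.87%), with 80 of the 226 genes followed under each alternative passing there and not in edgeR, and 679 with it (5.5%), 309 higher (2.5%) and 370 lower (3.0%). Counts for gene lists are those of edgeR with the block, followed where they differ by over 1.5 times by those of DESeq2 with the block. List counts are to be read against the shares over all genes just given. As a count that needs no model, both capillary sums lay above both vessel sums for 18.1% of the genes tested and below them for 20.5%. With so few sums this order is also frequent among genes that do not differ, so these shares alone do not show a difference.

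The largest differences were found by rule: the 12 genes with the largest and the 12 with the smallest fold change among those called with at least 50 CPM on the higher side and the same direction in both libraries. Higher in capillary cells were ESM1, NOX4, GPIHBP1, LNX1, STC2, RGCC, KIT, SPRY4, MPP2, SPARCL1, ADGRF4 and EDNRB. For all 12 the capillary and vessel sums did not overlap, which the choice by size of change favours. Over all genes tested, both capillary sums lay above both vessel sums for 18.1%. ESM1, a secreted proteoglycan known from VEGF-stimulated tip cells, stood at 91.0 and 88.3 CPM in capillary against 5.16 and 14.1 CPM in vessel cells (log2 fold change 3.67 ± 0.26, adjusted p = 3.7e-11). It was also read outside the endothelium, at 20.2 and 347 CPM in non-endothelial cells. GPIHBP1, which carries lipoprotein lipase to the luminal face of capillaries, stood at 94.9 and 64.1 against 9.83 and 10.6 CPM (3.13 ± 0.23, adjusted p = 6.2e-11). RGCC, a cell cycle regulator used as a marker of capillary endothelium, reached 782 and 1363 CPM against 88.4 and 259 (2.81 ± 0.14, adjusted p = 2.6e-14). After thinning each cell to 2000 UMIs it had a UMI in 68.0% and 86.7% of capillary cells and in 68.8% and 14% of immune cells, so it did not set capillary cells apart from immune cells in primary pancreas 1.

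KIT, the receptor of stem cell factor, stood at 168 and 297 CPM in capillary and 27.3 and 42.3 CPM in vessel cells (2.72 ± 0.17), below its 713 and 415 CPM in non-endothelial cells. Its ligand gene KITLG was also higher in capillary cells, at 603 and 644 against 183 and 296 CPM (1.47 ± 0.13). EDNRB, an endothelin receptor, had 180 and 154 against 31.4 and 41.2 CPM (2.33 ± 0.18), whereas EDN1, which encodes endothelin-1, had 17.5 and 12.3 against 119 and 75.3 CPM (-2.70 ± 0.19, adjusted p = 2.7e-11). Receptor and ligand thus lay on opposite sides of the split. SPARCL1, a matricellular protein, was at 673 and 831 against 112 and 147 CPM (2.57 ± 0.13). In MPP2, a membrane scaffold gene, 99.1% of the capillary UMIs of primary pancreas 1 came from the features the authors had extended past the annotated 3' end, so its level is that of the extension.

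Lower in capillary cells were WIPF3, TENM2, NTM, ADGRG6, SERTM1, CA10, MFAP5, FBLN1, DOCK11, CNTN3, MPP7 and PGM5. WIPF3, of a family that binds the actin regulator WASP, was at 1.08 and 0.949 CPM in capillary cells against 82.1 and 94.1 in vessel cells (-6.27 ± 0.30, adjusted p = 1.2e-14, and 0.041 without the block). ADGRG6, an adhesion G protein-coupled receptor, was at 8.27 and 0.949 against 274 and 189 CPM (-5.35 ± 0.24). TENM2, NTM and CNTN3 encode cell adhesion proteins better known from neurons. CA10, a carbonic anhydrase-related protein, was at 0.599 and 9.97 against 71.0 and 162 CPM, and at 16.7 and 182 CPM in non-endothelial cells. MFAP5 and FBLN1, which encode elastic fibre proteins, were at 0 in capillary cells of primary pancreas 2 and at 8.39 and 3.84 CPM in those of primary pancreas 1.

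**Figure D2:**
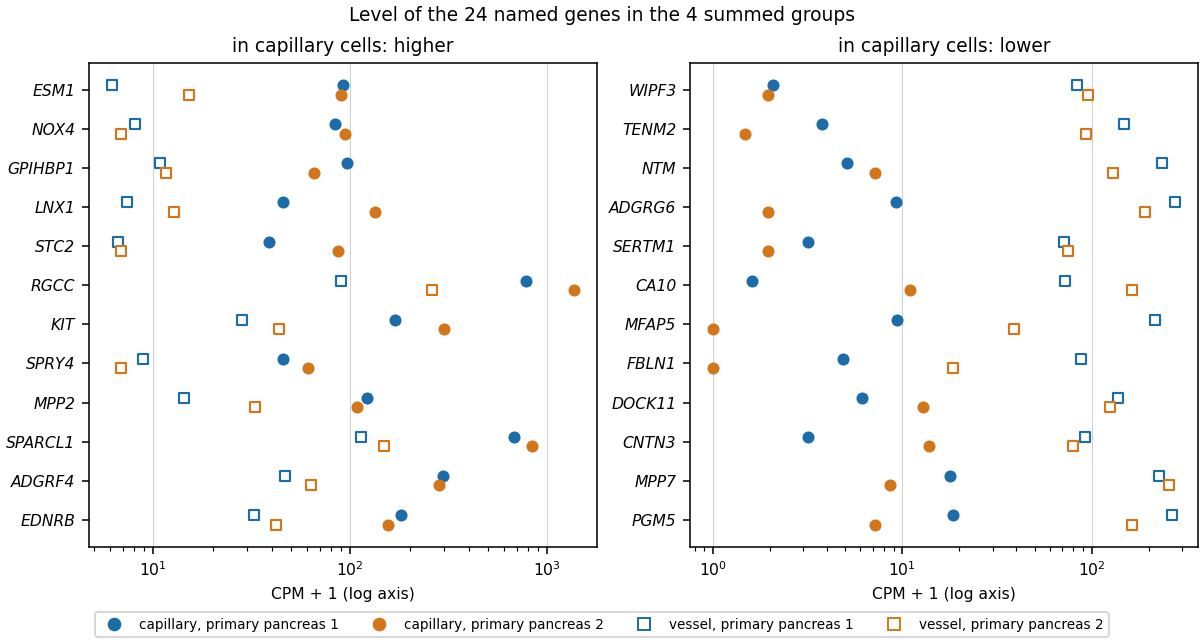
CPM plus 1 (log axis) of the 12 genes most raised and the 12 most lowered in capillary against vessel cells, with filled circles for capillary sums and open squares for vessel sums, in blue for primary pancreas 1 and orange for primary pancreas 2. In each of the 24 genes both circles lie on the same side of both squares, which the choice of genes by size of change favours.

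Genes known from capillaries of other organs were mostly on the capillary side. Of 22 tested, 18 were higher and 1 lower, with a median log2 fold change of 1.19 against 0 over all genes tested. The list holds SCARB1 and CHST15, which were chosen with these values known, and without them 16 of 20 were higher and 1 lower (median 1.17). PLVAP, the diaphragm protein of fenestrae, was at 3448 and 4909 CPM in capillary and 1252 and 2729 CPM in vessel cells (1.18 ± 0.10, adjusted p = 6.2e-10). After thinning every cell to 2000 UMIs it had a UMI in 93.2% and 98.5% of capillary cells, in 62.9% and 84.8% of vessel cells, in 20% and 30.2% of immune cells and in 2.39% and 1.0% of ductal cells. CA4, a carbonic anhydrase of the capillary surface, was at 82.6 and 98.7 against 15.5 and 40.0 CPM (2.01 ± 0.22), yet had a UMI in only 32.1% and 30.6% of members at full depth. SCARB1, a lipoprotein receptor, stood at 1254 and 1893 against 332 and 962 CPM (1.48 ± 0.14), and CHST15, a chondroitin sulfate sulfotransferase, at 458 and 510 against 109 and 165 CPM (1.90 ± 0.14). The exception was MEOX2, a homeobox factor of muscle and heart capillaries, which was lower, at 8.99 and 0.475 against 53.8 and 20 CPM (-2.81 ± 0.31). AQP1, the water channel, and CAV1, the coat protein of caveolae, had adjusted p-values of 0.93 and 0.81, with capillary levels of 171 and 280 CPM and of 793 and 746 CPM, and 85.6% and 74.7% of the CAV1 UMIs were in extended features. PRX and LPL were too low to test.

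Lipid uptake genes ranged from the abundant FABP5 and FABP4 to genes near 0. Of 15 tested, 8 were higher and 0 lower (median 0.71). The list shares SCARB1, GPIHBP1, FABP4, FABP5 and CD36 with the capillary genes above, so part of these calls is counted there too. SCARB1 was also chosen with these values known. FABP5, a fatty acid binding protein, had 4410 and 3975 CPM in capillary against 2281 and 2398 CPM in vessel cells (0.87 ± 0.08), and its relative FABP4 2061 and 2057 against 949 and 1141 CPM (1.01 ± 0.09). CD36, the fatty acid translocase, had 587 and 609 against 309 and 487 CPM (0.66 ± 0.13), and PPARG, the nuclear receptor that drives this group in adipocytes, 120 and 106 against 35.6 and 43.5 CPM (1.62 ± 0.18). The enzyme genes LPL and LIPG stayed at or under 1.92 CPM in capillary cells. LPL, whose product GPIHBP1 binds, is thus read at a far lower level here than its carrier. Genes of caveolae and fenestrae, PLVAP included, had a smaller median, with 4 of 11 higher and 0 lower (1 and 0 by DESeq2, median 0.24), among them CAVIN2 (0.54 ± 0.12) and EHD4 (0.51 ± 0.12).

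Receptors and ligands of vessel growth were mostly higher in capillary cells as well. Of 25 tested, 18 were higher and 1 lower (9 and 1 by DESeq2, median 0.77). NRP1, the co-receptor of VEGF, was at 908 and 746 against 254 and 262 CPM (1.71 ± 0.12, adjusted p = 2e-11). ROBO4, a guidance receptor of endothelium, was at 240 and 291 against 89.7 and 107 CPM (1.45 ± 0.14). PDGFB, the signal that recruits pericytes, was at 107 and 161 against 27.3 and 55.3 CPM (1.83 ± 0.17), and the Notch ligand DLL4 at 125 and 125 against 54.8 and 45.9 CPM (1.30 ± 0.16). APLN, which encodes the tip cell peptide apelin, was low but on the capillary side, at 10.4 and 24.7 against 0.491 and 0 CPM. VEGFC, known for lymphatic growth, was the gene lower in capillary cells, at 98.8 and 108 against 281 and 447 CPM (-1.73 ± 0.14). TIE1 and ACVRL1 did not pass, with adjusted p-values of 0.98 and 0.94 and capillary levels of 107 and 129 CPM and of 95.5 and 98.7 CPM.

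**Figure D3:**
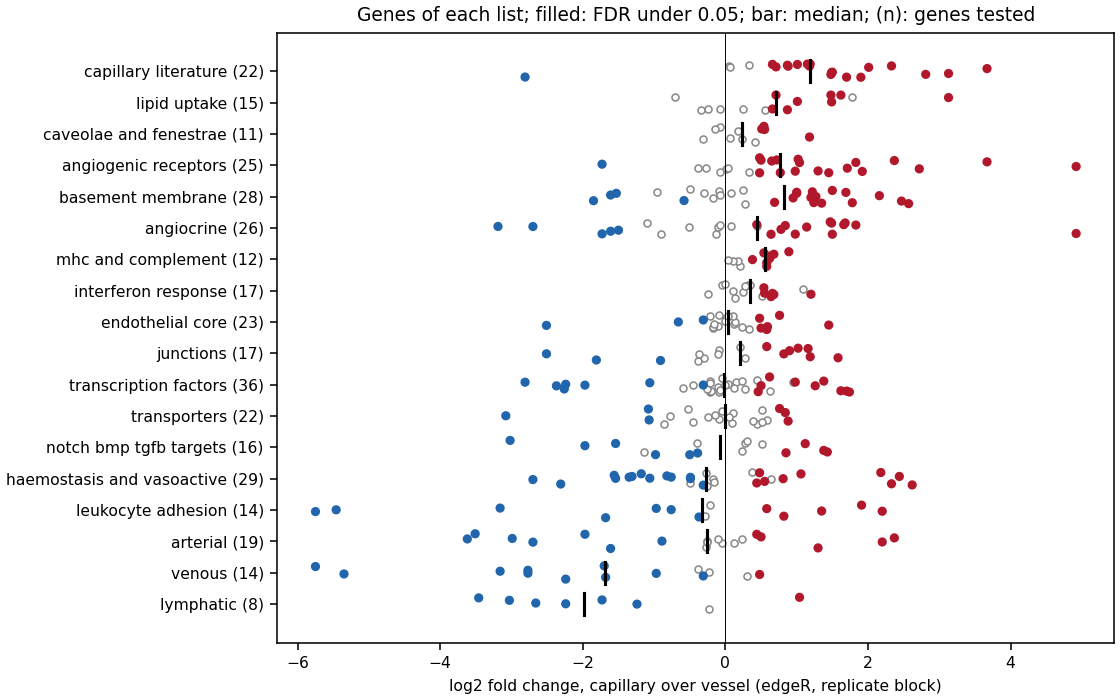
Log2 fold change of capillary over vessel cells in the edgeR fit with the library as block, 1 point per gene, for 18 lists with the number of genes tested in brackets. Filled points passed an adjusted p of 0.05, in red when higher and blue when lower in capillary cells, and black bars are medians, which run from 1.19 for known capillary genes to -1.99 for lymphatic genes.

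Genes of the basement membrane, the sheet on which endothelium rests, were on the capillary side in 15 of 28 tested and on the vessel side in 4 (11 and 2 by DESeq2, median 0.82). COL4A1 and COL4A2, the chains of its main collagen, were at 410 and 516 against 107 and 205 CPM (1.69 ± 0.14) and at 545 and 612 against 207 and 290 CPM (1.27 ± 0.12). NID1, which links collagen to laminin, was at 143 and 151 against 29.5 and 41.2 CPM (2.16 ± 0.17). Laminins split by chain: LAMA4 was higher, at 182 and 204 against 118 and 68.2 CPM (1.00 ± 0.17), and LAMA3 lower, at 75.4 and 46.5 against 213 and 145 CPM (-1.53 ± 0.15). Integrins did so too, with the collagen receptor ITGA1 at 643 and 807 against 242 and 274 CPM (1.5 ± 0.12) and the laminin receptor ITGB4 at 33.8 and 39.4 against 133 and 129 CPM (-1.85 ± 0.17). Pericytes also make COL4A1 and SPARCL1. Mural markers summed to 399 and 53.6 CPM in capillary and 338 and 40.0 CPM in vessel cells, with 6 of 9 called higher by edgeR and 1 by DESeq2 and with the capillary sums above the vessel sums for 1, and RGS5 at 74.5 and 0.949 against 13.8 and 0 CPM. The part of mural RNA in these differences was not tested.

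Secreted signals of endothelium to its neighbours were higher in capillary cells in 13 and lower in 5 of 26 tested (7 and 3 by DESeq2, median 0.44). CXCL12, a chemokine that retains haematopoietic and immune cells, was at 2117 and 2620 against 340 and 816 CPM (2.20 ± 0.14, adjusted p = 2.2e-12). HGF, a growth factor of epithelia including the pancreas, was at 268 and 230 against 70.5 and 96.4 CPM (1.68 ± 0.16), and BMP6 at 137 and 155 against 62.4 and 34.1 CPM (1.49 ± 0.19). IGFBP7, an abundant binding protein of insulin-like growth factors, was at 3133 and 7822 against 1402 and 3724 CPM (1.14 ± 0.08). IGFBP5 was on the vessel side, at 8.99 and 0 against 49.4 and 76.4 CPM (-3.19 ± 0.39).

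Genes of antigen presentation were read at high levels in the members. Of 12 tested, 8 were higher in capillary cells and 0 lower (3 and 0 by DESeq2, median 0.56). SLA-DRA, the class II alpha chain of the pig, was at 1790 and 1626 against 969 and 902 CPM (0.89 ± 0.09), and SLA-DRB1 at 1244 and 1324 against 803 and 956 CPM (0.58 ± 0.10). CIITA, the master regulator of class II genes, was at 102 and 172 against 71.2 and 94.1 CPM (0.68 ± 0.16). After thinning to 2000 UMIs, SLA-DRA had a UMI in 91.6% and 88.8% of capillary cells and in 75.3% and 66.7% of vessel cells. The shares were 65.6% and 54.3% in immune cells and 1.91% and 0.25% in ductal cells. B2M, the light chain of class I, was at 12680 and 9620 against 9664 and 7782 CPM (0.38 ± 0.06). CMAH, whose enzyme makes a xenoantigen that human antibodies bind, was at 126 and 104 against 155 and 94.1 CPM (-0.11 ± 0.16, adjusted p = 0.77). Of the interferon response, 6 of 17 genes were higher and 0 lower (1 and 0 by DESeq2, median 0.34), led by IFI6 (1.20 ± 0.10), but for 0 of the 17 did the capillary sums lie outside the vessel sums. That last count ignores the pairing, and these genes also differed between the libraries, with a median log2 ratio of 1.06 over the 10 measurable.

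Venous and lymphatic genes were mostly on the vessel side, and arterial genes were divided. Venous genes were lower in capillary cells in 10 of 14 tested and higher in 1, the apelin receptor APLNR (9 and 0 by DESeq2, median -1.69). NR2F2, the transcription factor of venous identity, was at 40.7 and 30.9 against 168 and 192 CPM (-2.24 ± 0.17), and ACKR1, a chemokine receptor of venules, at 0.12 and 0.475 against 10.3 and 20 CPM. Lymphatic genes were lower in 6 of 8 and higher in 1, FLT4 (5 and 0 by DESeq2, median -1.99). PROX1, the master factor of lymphatic identity, had 4.55 and 1.9 CPM in capillary and 27.3 and 16.5 CPM in vessel cells. Of 19 arterial genes, 5 were higher and 7 lower (3 and 5 by DESeq2, median -0.26). GJA5, the gap junction protein of arteries, was at 8.63 and 1.42 against 90.9 and 32.9 CPM (-3.51 ± 0.26) and SEMA3G at 46.4 and 47.5 against 174 and 106 CPM (-1.61 ± 0.18), while CXCL12, DLL4, UNC5B, EFNB2 and LTBP4 of the same list were higher in capillary cells. HES1, a Notch target, was higher as well, at 457 and 291 against 204 and 92.9 CPM (1.38 ± 0.14). Its list of Notch, BMP and TGF-beta targets was divided, with 4 of 16 tested higher and 6 lower (3 and 2 by DESeq2, median -0.07).

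Barrier and vascular tone genes also differed. CLDN5, the main claudin of tight endothelium, was at 215 and 64.6 CPM in capillary cells against 1145 and 423 CPM in vessel cells (-2.51 ± 0.13, adjusted p = 3.3e-14). Among 17 junction genes tested, 7 were higher and 3 lower (3 and 1 by DESeq2, median 0.20), and JAM3 was one of the higher, at 195 and 294 against 86.2 and 132 CPM (1.19 ± 0.14). Of 29 genes of haemostasis and vascular tone, 9 were higher and 13 lower (4 and 7 by DESeq2, median -0.27). THBD, the anticoagulant receptor thrombomodulin, was at 65.3 and 73.1 against 148 and 172 CPM (-1.18 ± 0.15), and NOS3, which makes nitric oxide, at 79.2 and 75.5 against 152 and 111 CPM (-0.76 ± 0.16). PLAU, the urokinase that dissolves matrix, ran the other way, at 85.3 and 161 against 16.2 and 45.9 CPM (2.18 ± 0.19). Of 14 leukocyte adhesion genes, 5 were higher and 7 lower (1 and 6 by DESeq2, median -0.33). IL1R1, the receptor of interleukin-1, was at 47.1 and 54.1 against 392 and 551 CPM (-3.16 ± 0.14) and IL6 at 1.44 and 0.475 against 67.3 and 17.6 CPM (-5.46 ± 0.36).

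Of 23 genes of all endothelium tested outside the rule, 6 were higher and 3 lower (1 and 1 by DESeq2, median 0.03). Among its transcription factors, ERG was at 462 and 344 CPM in capillary and 463 and 407 CPM in vessel cells (-0.09 ± 0.12, adjusted p = 0.74), and FLI1 at 677 and 564 against 852 and 622 CPM (-0.21 ± 0.11, adjusted p = 0.22). Of 36 transcription factors tested, 9 were higher and 7 lower (5 and 5 by DESeq2, median -0.02). On the capillary side were ETS1, at 902 and 903 against 330 and 455 CPM (1.26 ± 0.12), HLX, at 114 and 122 against 38.6 and 60 CPM (1.38 ± 0.17), and TCF15, a factor of fatty acid handling in heart and muscle capillaries, at 30.6 and 71.7 against 10.6 and 18.8 CPM (1.70 ± 0.24), with 66.3% and 83.4% of its capillary UMIs in extended features. On the vessel side stood MEOX1, at 36.8 and 25.6 against 143 and 226 CPM (-2.37 ± 0.19), and FOXC1 (-2.26 ± 0.34), with 97.9% of its capillary UMIs of primary pancreas 1 in extended features. Of the other lists, 3 of 22 transporters were higher and 3 lower (1 and 1 by DESeq2), and 1 of 18 hypoxia genes was higher and 3 lower (0 and 2 by DESeq2). Over all genes tested, 7.62% were higher and 8.76% lower by edgeR and 2.5% and 3.0% by DESeq2. Such small counts thus say little about these lists. TOP2A, which marks dividing cells, had a UMI in 11 of 747 and 2 of 196 members.

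Acinar, ductal and fibroblast transcripts were higher in the vessel sums. Acinar markers summed to 604 and 117 CPM in capillary and 2063 and 127 CPM in vessel cells, and 9 of 10 tested were called lower in capillary cells by edgeR and 2 by DESeq2, with sums that lay apart for none. Of the acinar UMIs in capillary cells of primary pancreas 1, single cells held much, 37.7% of CPA1 and 29.8% of CLPS. Ductal markers were called lower in 8 of 10 by edgeR and 0 by DESeq2, with 1 that lay apart, with sums of 143 and 179 against 369 and 210 CPM, and fibroblast markers in 5 of 8 by edgeR and 2 by DESeq2, with 275 and 168 against 862 and 448 CPM. Their part in the gene differences above was not tested. With the block, and without genes more than 2-fold higher in non-endothelial than in endothelial cells, 1889 of 10609 genes passed, 927 higher and 962 lower.

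Capillary cells of the 2 libraries could be compared without a test, since each is 1 sample. Of 2107 genes with at least 100 CPM and 50 UMIs on the higher side, 39 differed more than 4-fold (1.85%), 35 higher in primary pancreas 1 (1.66%) and 4 in primary pancreas 2 (0.19%), and the median log2 ratio was -0.08. The immediate early genes, which respond within minutes to stress or growth factors, were 7 of the 35. FOSB was at 295 CPM (exact Poisson 95% interval 283 to 307) and 6.17 CPM (3.29 to 10.6), and ATF3 at 424 (410.0 to 438) and 10.9 (6.92 to 16.4). FOS was at 1691 and 211 CPM, and after thinning had a UMI in 80.3% and 17.3% of capillary cells. The median log2 ratio of the 13 such genes measurable was 2.06. Members below 4-fold included DUSP1, NR4A1 and KLF2: DUSP1 stood at 921 and 1163 CPM, NR4A1 at 195 and 185, and KLF2, which responds to blood flow, at 838 and 1425.

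By the rule for named genes, the 8 largest ratios toward primary pancreas 1 were those of HBB, FOSB, PRKG1, ATF3, RNF122, IFRD1, GADD45G and DUSP5. HBB, a haemoglobin chain, does not describe the group: 1 cell held 98.1% of its UMIs in primary pancreas 1. PRKG1, a cyclic GMP dependent kinase, was at 245 and 5.22 CPM, with UMIs in 222 and 6 cells. Toward primary pancreas 2, 3 of the 4 genes past 4-fold had a symbol borne by 1 gene, which the rule asks for, and the 8 largest ratios of such genes were those of INS, TTR, SOX18, EIF3F, LRP1B, HEATR4, VWA1 and LNX1. INS and TTR, at 142 and 9503 and at 2.88 and 101 CPM, are transcripts of beta and other islet cells. SOX18, an endothelial transcription factor, was at 122 and 566 CPM in capillary cells and at 122 and 669 CPM in vessel cells. Of the 39 genes, 36 also differed more than 4-fold in the same direction in vessel cells and 22 in non-endothelial cells. No share over all genes is given for these ratios, so the counts cannot be judged against one. The mix of non-endothelial cells also differed between the libraries, with 56 and 3374 INS-rich and 410 and 41 mural barcodes. Its part in the 22 was not tested. The interferon genes had a median log2 ratio of 1.06 over the 10 measurable, with IFI6 at 2047 and 744 CPM and MX2 at 453 and 119 CPM.

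**Figure D4:**
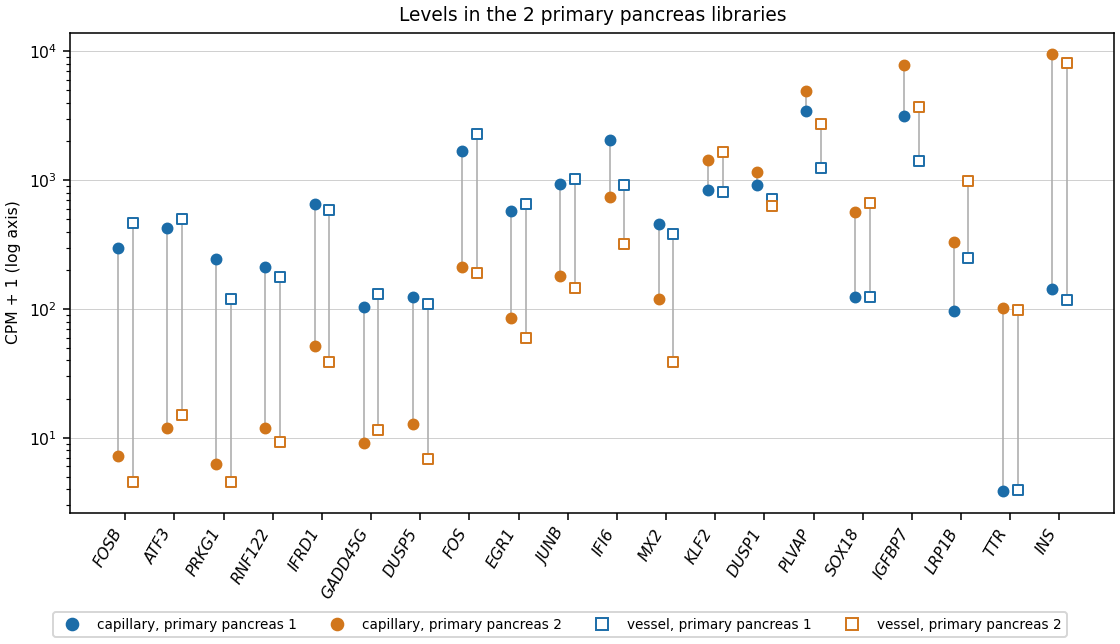
CPM plus 1 (log axis) of 20 genes in capillary (filled circles) and vessel cells (open squares) of primary pancreas 1 (blue) and 2 (orange), with grey lines joining the libraries. FOSB, at 295 and 6.17 CPM in capillary cells, and INS, at 142 and 9503 CPM, lie far apart in opposite directions in both cell groups, while DUSP1 does not.

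ESM1, STC1, NEBL and CA4 varied widely in UMIs among the members. After thinning to 2000 UMIs, ESM1 had a UMI in 7.36% and 10.7% of members and in 0% and 0.775% of immune cells, and CA4 in 11.8% and 10.7% against 0% and 0.775%. STC1 had one in 25.3% and 33.7% of members and in 0% and 0.775% of immune but 8.16% and 3.17% of ductal cells. NEBL had one in 18.6% and 20.9% of members and in 17.2% and 12.4% of immune cells, so a single UMI of it says little. Vessel cell shares were 0.669% and 3.03% for ESM1, 2.34% and 4.55% for CA4, 18.4% and 6.06% for STC1 and 25.1% and 21.2% for NEBL. NEBL was thus at least as frequent in vessel cells as in members. Capillary cells with several UMIs of each were set beside capillary cells with none, by library. These genes and limits were chosen after the values were seen, the high cells were deeper in the median, except the CA4 cells of primary pancreas 2, and the differences carry no test. ESM1 with at least 3 UMIs was found in 60 of 747 (8.03%) and 19 of 196 (9.69%) members, STC1 with at least 5 in 107 and 48, NEBL with at least 6 in 83 and 21, and CA4 with at least 3 in 96 and 24. Together these took in 39.4% and 49.0% of the members. In the ESM1 cells, 5 of 60 and 0 of 19 were also CA4 cells.

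In ESM1-high cells, ANGPT2, APLN and COL4A1 were higher in both libraries. KDR was at 582 CPM in the high and 326 CPM in the ESM1-free cells of primary pancreas 1 but at 381 and 400 CPM in primary pancreas 2, and FLT1 at 1505 and 1496 and at 1258 and 1768 CPM. ANGPT2, a destabilising ligand of the receptor TEK, was at 119 CPM in the high and 39.8 CPM in the ESM1-free cells of primary pancreas 1, and at 105 and 26.7 CPM in primary pancreas 2. APLN was at 31.9 and 7.22 and at 87.0 and 17.6 CPM in the same order, and COL4A1 at 967 and 312 and at 1084 and 415 CPM. CA4 was lower in them, at 38.3 and 95.8 and at 3.62 and 118 CPM. The contractile genes TAGLN and ACTA2 show how 1 cell can set such a level. TAGLN was at 436 CPM in the high cells of primary pancreas 1 and at 257 CPM in those of primary pancreas 2, but 1 cell held 418 of the 478 UMIs and 65 of the 71, and the levels were 56.7 and 22.8 CPM without it. In ESM1-free cells TAGLN was at 65.0 and 7.02 CPM, so in primary pancreas 2 the high cells stayed above that level. ACTA2 was at 361 CPM in the high cells of primary pancreas 1 and at 4.73 CPM without 1 cell that held 391 of the 396 UMIs, and it was at 0 in primary pancreas 2. Without the cell highest in it, ANGPT2 stayed at 106 and 80 CPM, APLN at 28.5 and 69.3 and COL4A1 at 898 and 939.

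Of 19 arterial genes, 12 were higher and 2 lower in STC1-high than in STC1-free cells in both libraries, and for NEBL, itself on the list, 12 were higher and 2 lower of the other 18. These counts are not independent, since STC1-high and NEBL-high cells overlapped. In primary pancreas 1, 24 cells were both (22.4% of STC1-high and 28.9% of NEBL-high cells), and in primary pancreas 2, 5 were (10.4% and 23.8%). In CA4-high cells 1 of 19 was higher and 15 lower, and in ESM1-high cells 6 were higher and 4 lower. Over all genes tested, 23.8% were higher and 27.6% lower in both libraries by STC1, 29.9% and 27.3% by NEBL, 20.7% and 31.8% by CA4 and 26.7% and 27.9% by ESM1. STC1 encodes stanniocalcin-1, a secreted hormone, and NEBL the actin-binding protein nebulette. SEMA3G was at 80.2 CPM in STC1-high and 17.7 CPM in STC1-free cells of primary pancreas 1, and at 102 and 18.5 CPM in primary pancreas 2. For NEBL the same gene was at 191 and 14.7 and at 148 and 22.2 CPM. GJA4, a gap junction gene of arterioles, was at 98.3 and 30 and at 98.3 and 43.6 CPM by STC1, and at 154 and 29.0 and at 133 and 44.4 CPM by NEBL. INSR, the insulin receptor, and DLL4 went with STC1, INSR at 321 and 133 and at 484 and 172 CPM. VEGFC went more with NEBL, at 429 and 34.9 and at 448 and 42.7 CPM, as did the lipocalin LCN2, at 130 and 0.454 and at 79.7 and 0.854 CPM.

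By the genes that chose the members, and so only as a description, NEBL-high cells lay closer to the vessel side than NEBL-free cells. Their median margin over the vessel genes was 8 and 10 UMIs, against 11 and 16 in NEBL-free cells. PLVAP was at 2000 and 3773 CPM in them and in NEBL-free cells of primary pancreas 1 and at 2748 and 5367 CPM in primary pancreas 2, and NOX4, an oxidase that makes hydrogen peroxide, at 27.1 and 94.1 and at 30.4 and 120 CPM. GJA5 was at 41.0 and 1.13 CPM in the first library but at 3.80 and 0.854 CPM in the second. CA4-high cells differed the opposite way from NEBL-high ones in SEMA3G and VEGFC, with SEMA3G at 7.48 and 65.8 and at 15.3 and 59.5 CPM and VEGFC at 21.7 and 138 and at 42.1 and 142 CPM. DNASE1L3, a secreted DNase, was higher in CA4-high cells, at 56.8 and 23.4 and at 157 and 31.1 CPM, and SLC6A6, the taurine transporter, at 87.5 and 48.4 and at 199 and 74.7 CPM. SLC6A6 was higher in NEBL-high cells too, at 86.4 and 45.4 and at 285 and 47.8 CPM.

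**Figure D5:**
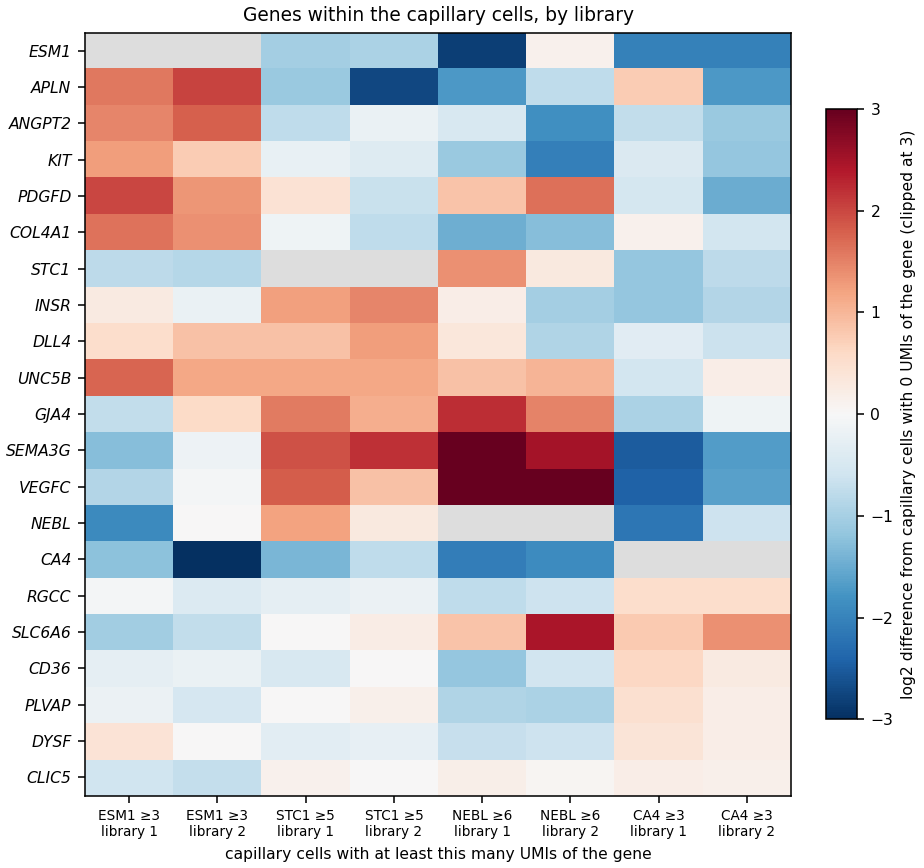
Log2 difference in CPM (5 CPM added) between capillary cells with at least the stated UMIs of ESM1, STC1, NEBL or CA4 and capillary cells with 0, for 21 genes in both libraries, with red higher, blue lower and grey for the defining gene. SEMA3G is higher in the STC1 and NEBL columns and lower in the CA4 columns, and ANGPT2 and APLN are highest in the ESM1 columns.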

How the data were processed

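The matrices, barcodes and feature tables were the authors' Cell Ranger output (7.1.0 per the file headers; Sscrofa11.1 is named in the submitters' processing notes; the annotation was the study's own). Each deposited matrix gives UMI counts without normalization, and an annotated feature was summed with its 3' extension, giving 30282 genes, of which 16090 had a unique symbol. The study's correction for free RNA is not in these counts. Cells were chosen by the stated limits, counts were summed per library and cell group, and the sums, without the 16 genes of the rule, were tested with edgeR's quasi-likelihood test with Benjamini-Hochberg adjustment, the filter of filterByExpr and TMM factors. The fit written down first had no library term. Capillary and vessel sums of a number share a library and pig, and their deviations from the group means correlated at r = 0.611 over 12353 genes, so values in the text come from the alternative with the replicate block, and the rule for named genes was applied to it after both had been seen. In simulated sums with a library shift (12078 genes), the block recovered 100% of 4-fold and 87% of 2-fold changes with 17 false calls, edgeR without it 0% of both, and DESeq2 without it 87% and 1%. These sums were drawn with the dispersion of the blocked fit (0.0123) and a shift shared by both groups of a library, which favours the block. The choice of cells by the split was not simulated, so the recovery does not show which fit suits these data. With no library shift (12003 genes) edgeR recovered 63% and 4% with the block and 68% and 5% without it. Residual spread comes from 2 pigs only. Shares of cells were taken after thinning each cell to 2000 UMIs. Ratios used 1 CPM as pseudocount. Doublets were kept and removed with Scrublet in an alternative (16 and 4 capillary cells lost). The members and gene lists were chosen with earlier results of these data known, 474 of 512 list genes matched a symbol, and nothing here is independent support for them. A gene of 2 lists counts in both. The study's cell limits and Scrublet thresholds differ by pancreas, and were applied on the assumption, which the labels do not state, that replicate 1 is the first. Alternatives were DESeq2, RLE factors, no filter, thinned sums, the study's cell limits, stricter rules and leaving out each sum. The transgene features were not used in comparisons.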

Additional observations from a re-analysis of the deposited data

Results flagged for a closer look

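The feature tables also held 8 transgene features, outside the comparisons above. Summed, they had 16 and 0 UMIs in PPDO 1 and 2, 164 in primary pancreas 1 and 10390 in primary pancreas 2, which is what drew attention. In the primary libraries, 117 and 9504 of them lay in INS-rich barcodes and 1 and 2 in capillary cells. INS-rich barcodes themselves numbered 56 and 3374, so their number differed between the libraries in the same direction.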

How the results depend on the processing

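Without the block, 1 gene was called, and 422 with DESeq2, 7 with at least 15 endothelial UMIs, 2 under the study's cell limits with Scrublet, 102 with a margin of at least 4 UMIs, 1007 with no filter on low counts, 70 with sums thinned to the smallest and 55 without genes higher in non-endothelial cells, whereas RLE factors gave 1. Leaving out any 1 sum gave 0 calls, a range of 0 to 0, with 878 to 1474 genes at an unadjusted p under 0.05, and a lone sum was assumed to vary like the other group. With the replicate block 2023 were called, and in alternatives chosen after seeing the data it gave 679 with DESeq2, 1889 with RLE factors, 1599, 1588 and 1741 under the stricter count, the study's limits and the margin, 1300 of 8856 with thinned sums and 1889 without genes higher outside the endothelium. Of the 24 named genes 21 were called in all 7 blocked alternatives, and ESM1, KIT and CNTN3 in each but the one without genes higher outside the endothelium, which leaves them out, and 193 of 226 genes followed kept 1 sign throughout. DCN, a fibroblast gene, reversed to 2.59 with at least 15 endothelial UMIs and the block, and the cause was not tested. The capillary share moved to 12.9% and 4.5% of the cells left by the study's limits, with replicate numbers taken as the study's pancreas numbers, and to 9.23% in primary pancreas 1 with the margin. Genes past 4-fold between the libraries fell to 25 without those higher in non-endothelial cells. Depth limits the vessel sum of primary pancreas 2 most, at 850452 UMIs from 66 cells.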

Other observations

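AGR2, a disulfide isomerase of secretory epithelium that is studied in ducts, had UMIs in 49.4% and 27.6% of capillary cells, at 73.0 and 35.1 CPM, against 7.87 and 4.62 CPM in ductal cells of the same libraries. Vessel cells were alike, with UMIs in 43.8% and 25.8% of cells and 49.6 and 24.7 CPM. Of those capillary UMIs, 93.4% and 77.0% came from the extended features past the annotated 3' end, so the level in endothelium is mostly that of the extension. EGR3 had 95.7% of its capillary UMIs of primary pancreas 1 in such features.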
